A study of Mus musculus with 8 samples.

Results

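Six2, Six3, Six4, Six5, Six6, Eya1, Eya2, Dach1 and Dach2 are 9 mouse genes of the retinal determination network, of the Six-, Eya- and Dach-families. They were chosen by name, as 9 of the 20187 protein-coding genes of at least 1 kb in the gene table. A chromatin loop was assigned to a gene when an anchor overlapped its gene body widened by 5 kb at either end. A topologically associating domain (TAD) was assigned when it touched the gene body, and a CTCF peak when it overlapped the widened gene body by at least 1 bp. Hi-C, which captures pairs of DNA segments that lie close together in the nucleus, was performed on embryonic stem (ES) cells of the mouse line v6.5, on lens epithelium and on lens fiber cells, with 2 replicates of each. The ES cells grew without feeder cells in medium with LIF. Both lens cell types were taken from CD-1 newborns at postnatal day 0.5, with 30 lenses per Hi-C replicate, and all Hi-C samples were crosslinked with 2.0% formaldehyde. CTCF ChIP-seq was performed on 200 pooled lenses of the same age for each lens cell type, with 6 µg of chromatin and 5 µl of antibody, and with 1 sample each. The ES cells are 1 male cell line of a mixed strain other than that of the lenses, and the sex of the lenses was not given. Strain, sex, culture and cell type therefore cannot be told apart in any comparison with the lens.

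Six-family proteins are homeodomain transcription factors, Eya proteins are protein phosphatases that bind them and act as transcriptional co-activators, and Dach proteins are DNA-binding relatives of the Ski family that mostly act as corepressors. Together with Pax6 the network specifies the eye field and the lens placode, and its members are used again in kidney, muscle, ear and limb. Loops are mostly formed when cohesin extrudes chromatin until it meets CTCF, and a TAD is a segment that contacts itself more than its surroundings.

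The replicates of each cell type had been merged by the authors, who deposited for each a list of HiCCUPS loops, whose anchors were 5, 10 or 25 kb wide, and a list of Arrowhead TADs. Replicate error could therefore not be computed, and the cell types were compared by description alone. HiCCUPS had called 8459 loops in ES cells, 8005 in the epithelium and 7682 in fiber cells, together with 3604, 1796 and 2641 TADs. The CTCF peaks numbered 16433 in the epithelium and 23868 in fiber cells. Sequencing depth was not used here, and a feature that a list does not hold is not shown to be absent from the cells. No expression data were used, so the cell types could not be checked against their markers. Coordinates are those of build mm10, the same assembly as the GRCm38 gene table, counted from 1.

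The promoters of 3 Six-family genes are shown first, because those of Six2 and Six3 lay in the 2 anchors of the strongest loop found at these genes and that of Six6 held the longest word shared with another member. Each run is the 250 bases before the transcription start in RefSeq, build GRCm38.p6, read 5′ to 3′ along the gene. The first is chr17:85688255-85688504 on the minus strand, the second chr17:85620584-85620833 and the third chr12:72939632-72939881, both on the plus strand. Capitals mark the words GTCTCCATGGCG, shared by Six2 and Six6, and TTGATTGGCAG, shared by Six3 and Six6.
Six2: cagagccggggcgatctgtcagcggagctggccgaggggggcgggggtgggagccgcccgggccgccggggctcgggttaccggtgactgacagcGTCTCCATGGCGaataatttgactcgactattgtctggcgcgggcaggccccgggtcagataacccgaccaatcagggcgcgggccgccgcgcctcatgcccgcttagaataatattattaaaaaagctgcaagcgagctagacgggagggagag
Six3: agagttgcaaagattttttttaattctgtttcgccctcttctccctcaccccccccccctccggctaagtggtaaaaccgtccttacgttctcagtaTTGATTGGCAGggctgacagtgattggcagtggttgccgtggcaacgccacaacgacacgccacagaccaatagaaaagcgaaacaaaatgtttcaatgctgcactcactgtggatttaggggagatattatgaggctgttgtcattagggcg
Six6: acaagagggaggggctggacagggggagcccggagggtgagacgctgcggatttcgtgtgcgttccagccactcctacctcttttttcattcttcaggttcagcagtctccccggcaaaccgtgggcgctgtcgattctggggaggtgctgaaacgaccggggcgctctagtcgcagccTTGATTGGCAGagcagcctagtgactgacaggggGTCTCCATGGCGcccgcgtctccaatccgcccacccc

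The first word, of 12 bases, was the longest that any pair of member promoters shared. It began 155 bases before the start of Six2 and 37 bases before that of Six6, and it stood in 11 of the 32619 mouse promoters of the table (0.0337%), which belonged to 9 genes. The word shared by Six3 and Six6, of 11 bases, began 153 and 71 bases before the start and also stood in 11 promoters. It holds ATTGG, the reverse of the CCAAT box on the other strand. The longest shared word had 11 bases in 5 pairs in all. Only the longest word of each pair was kept, so further shared words, such as gtgactgacag of Six2 and Six6, were not counted. The others were Dach2 with Six2, Dach2 with Six3, Six4 with Six3 and Six5 with Six2, and their words stood in 34, 15, 22 and 87 promoters. In all, 9 promoters of 7 members were matched, those of Six4 and Dach2 with 2 starts each, and CCAAT on either strand stood in 5 of the 9 and in 34.0% of all promoters. The core of the CTCF motif, searched on both strands as CCA, any 2 bases, AG, any 2 bases and GGC, stood in 0 of the 9 and in 2.08% of all. The member promoters held 10 to 26 CpG dinucleotides and 45.6% to 67.6% G and C, against medians of 6 and 52.4% over all promoters. Both words were found by comparing the member promoters with each other, and these matches describe letters and not bound sites.

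The ES cell list held 12 distinct loops at the 9 genes, the lens epithelium list 7 and the lens fiber list 8. A loop anchor was listed at 6 of 9 members in ES cells, 5 in the epithelium and 5 in fiber cells. Among all genes these shares were 39.3%, 38.2% and 36.4%. The shares differed with gene length, as an anchor lay at 67.2% of genes of at least 100 kb in ES cells and 32.7% of those under 50 kb. The 5 Six-family genes are under 50 kb, and each had a loop in ES cells, whereas 2 of 5, Six2 and Six3, had one in the epithelium and the same 2 in fiber cells. The ES cell loop of Six6 counts only through the widening, as its anchor began 0.102 kb outside the gene body. Without widening, members with a loop numbered 5 in each list. Of genes under 50 kb, 29.6% had a loop in the epithelium and 27.7% in fiber cells. The 4 Eya and Dach genes are longer than 100 kb. A loop was listed at 1 of 4 in ES cells, Eya2, and at 3 of 4 in each lens list, Eya1, Eya2 and Dach2. The shares of genes of at least 100 kb were 76.3% in the epithelium and 74.9% in fiber cells. ES cell loops were more often called with 5 kb anchors, 39.6% of all loops against 18.3% and 16.0% in the lens lists, and 5 of the 12 at the members had such anchors against 0 of 7 and 0 of 8. With loops of 5 or 10 kb anchors alone, a loop was listed at 4, 1 and 2 of the 5 Six-family genes and at 1, 0 and 0 of the 4 Eya and Dach genes. The share of all genes with such a loop was not computed, so these counts have no reference. The higher lens count of the long genes thus rested on 25 kb anchors. Every lens loop at Eya1, Eya2 and Dach2 had 25 kb anchors.

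**Figure D1:**
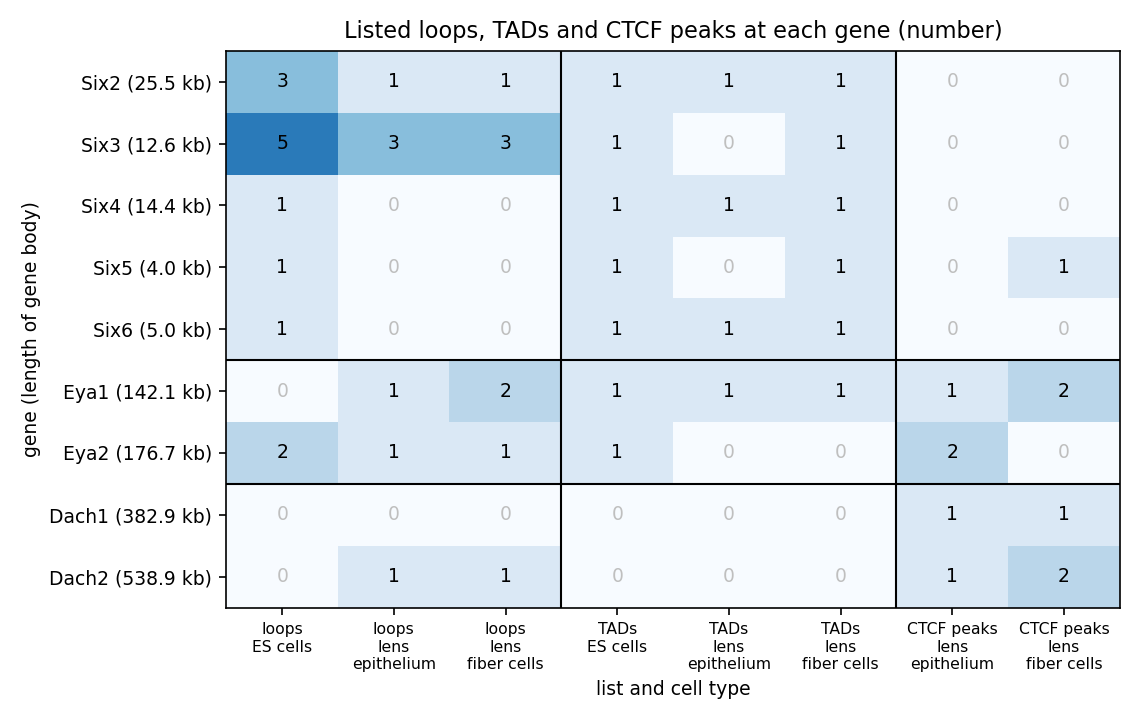
Number of listed loops, TADs and CTCF peaks (colour and digit) at each of the 9 genes (rows, with the length of the gene body in kb) in each list (columns). Loops were listed at the 5 Six-family genes in ES cells and at Six2 and Six3 alone of them in the lens lists, and CTCF peaks at 4 of the 4 Eya and Dach genes in the epithelium.

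TADs touched 7 of 9 members in ES cells, 4 in the epithelium and 6 in fiber cells. The shares of all genes were 42.2%, 22.3% and 30.9%. The 5 Six-family genes were touched by a TAD in ES cells and in fiber cells, and 3 of them, Six2, Six4 and Six6, in the epithelium. A TAD held the whole gene body of 6, 4 and 6 members, against 26.6%, 14.1% and 18.9% of all genes. A TAD border lay within 25 kb of 5, 2 and 4 of the 9 members, and of 41.7%, 21.1% and 30.6% of all genes. These TAD shares are over genes of any length, and none matched for gene length was computed.

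Six3, which is required for the forebrain and the lens placode, and Six2, which maintains nephron progenitors, are neighbours on chromosome 17. Six3 occupies 85613608 to 85626191 and Six2 85662736 to 85688254, with 36.5 kb between them. A 65 kb loop of ES cells joined the anchor 85620001 to 85625000, which holds the Six3 promoter shown above, to the anchor 85685001 to 85690000, which holds that of Six2. It had 122 observed contacts against 13.2 expected, a ratio of 9.24 (95% exact Poisson interval 7.67 to 11.03). The false discovery rate (FDR) was listed at 0. Its ratio was above that of 96.1% of all ES cell loops, and its contacts ranked 26 among the 3350 loops with 5 kb anchors. The Poisson intervals given here take the expected contacts as exact and cover counting error only. A TAD of 80 kb, from 85610001 to 85690000, held both genes in the same cells.

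Neither lens list held that loop or any TAD with both genes. In both lens cell types Six2 lay in a TAD of 415 kb, from 85660001 to 86075000, which began 2.74 kb from the Six2 gene body on the side of Six3. In fiber cells Six3 lay in a TAD of 445 kb, from 85185001 to 85630000, that ended 3.81 kb beyond the gene. No TAD touched Six3 in the epithelium, where the nearest border was 33.8 kb away. The gap between the genes thus held 0 TAD borders in ES cells, 1 in the epithelium and 2 in fiber cells. A CTCF peak of fiber cells lay in the gap at 85645942, with a fold enrichment of 6.19, and the lens epithelium list held 0 there.

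How often this occurs was counted over 5449 pairs of neighbouring genes 20 to 100 kb apart, a set chosen after the Six3 and Six2 values were seen. A loop joined 9.45% of the pairs in ES cells, 9.58% in the epithelium and 9.19% in fiber cells, and 1 TAD held both genes of 12.5%, 7.96% and 9.10%. Pairs joined by a loop in ES cells alone numbered 198 (3.63%) and pairs held by 1 TAD in ES cells alone 390 (7.16%). Both applied to 22 pairs, Six3 and Six2 among them.

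Outside that loop, the long-range partners of Six3 were all on the side away from Six2. One loop of 800 kb, between 84825001 to 84850000 and 85625001 to 85650000, was in all 3 lists, with 104 contacts in ES cells, 116 in the epithelium and 104 in fiber cells. Its ratios to the expected contacts were 2.61 (2.13 to 3.16), 3.73 (3.08 to 4.48) and 2.62 (2.14 to 3.17). The ratio in the epithelium was the highest, and its interval overlapped the other two. The Six3 anchor 85610001 to 85620000 holds the left end of the gene body, 85613608. It ends just before the Six3 promoter window, which lies inside the gene body. Both lens lists shared 2 more loops from this anchor. One ran 500 kb to 85110001 to 85120000 and the other 440 kb to 85170001 to 85180000, both in Camkmt, a calmodulin lysine methyltransferase. The 500 kb loop had 41 contacts in the epithelium and 50 in fiber cells (ratios 3.57 and 3.21), and the 440 kb loop 48 and 62 (2.90 and 2.88). For each of them the intervals of both lens cell types overlapped.

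Further ES cell loops of Six3 began at 85625001 to 85650000. One of 525 kb reached 85100001 to 85125000, the segment of Camkmt that holds the far anchor of the 500 kb lens loop, with 120 contacts and a ratio of 2.52. It differed from that loop at the Six3 anchor. Another of 950 kb reached 84675001 to 84700000, at the sterol transporter genes Abcg5 and Abcg8, with 56 contacts and a ratio of 2.97. With both midpoints within 10 kb, neither was in a lens list. The segment from 85480001 to 85490000 was joined to both genes in ES cells, to Six3 over 125 kb (35 contacts, ratio 2.81) and to Six2 over 200 kb (53 contacts, ratio 2.67), and neither loop was in a lens list.

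Six2 was joined to Srbd1, a gene of an S1 RNA-binding domain protein, in all 3 cell types. In ES cells the loop ran 370 kb from 85690001 to 85695000, just outside the Six2 start, to 86060001 to 86065000, with 21 contacts and a ratio of 5.61 (3.47 to 8.57). In fiber cells it ran 380 kb from 85680001 to 85690000 to 86060001 to 86070000, with 46 contacts and a ratio of 2.63 (1.93 to 3.51), and was shared with ES cells. In the epithelium it was called with 25 kb anchors, 85650001 to 85675000 and 86050001 to 86075000, over 400 kb, with 182 contacts and a ratio of 3.77 (3.24 to 4.36). The Srbd1 anchors overlapped in all 3 lists. The Six2 anchor of the lens epithelium loop was not within 10 kb of the others by its midpoint and did not hold the promoter. CTCF peaks of fiber cells lay near both ends, at 85694696 with a fold enrichment of 8.74 and at 86063728 with 6.68. The lens epithelium list held the first, at 85694715 with a fold enrichment of 5.39, and not the second. On the Six3 side the nearest lens epithelium peak lay 542 kb from the gene, and the stretch without a listed peak spanned 623 kb.

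**Figure D2:**
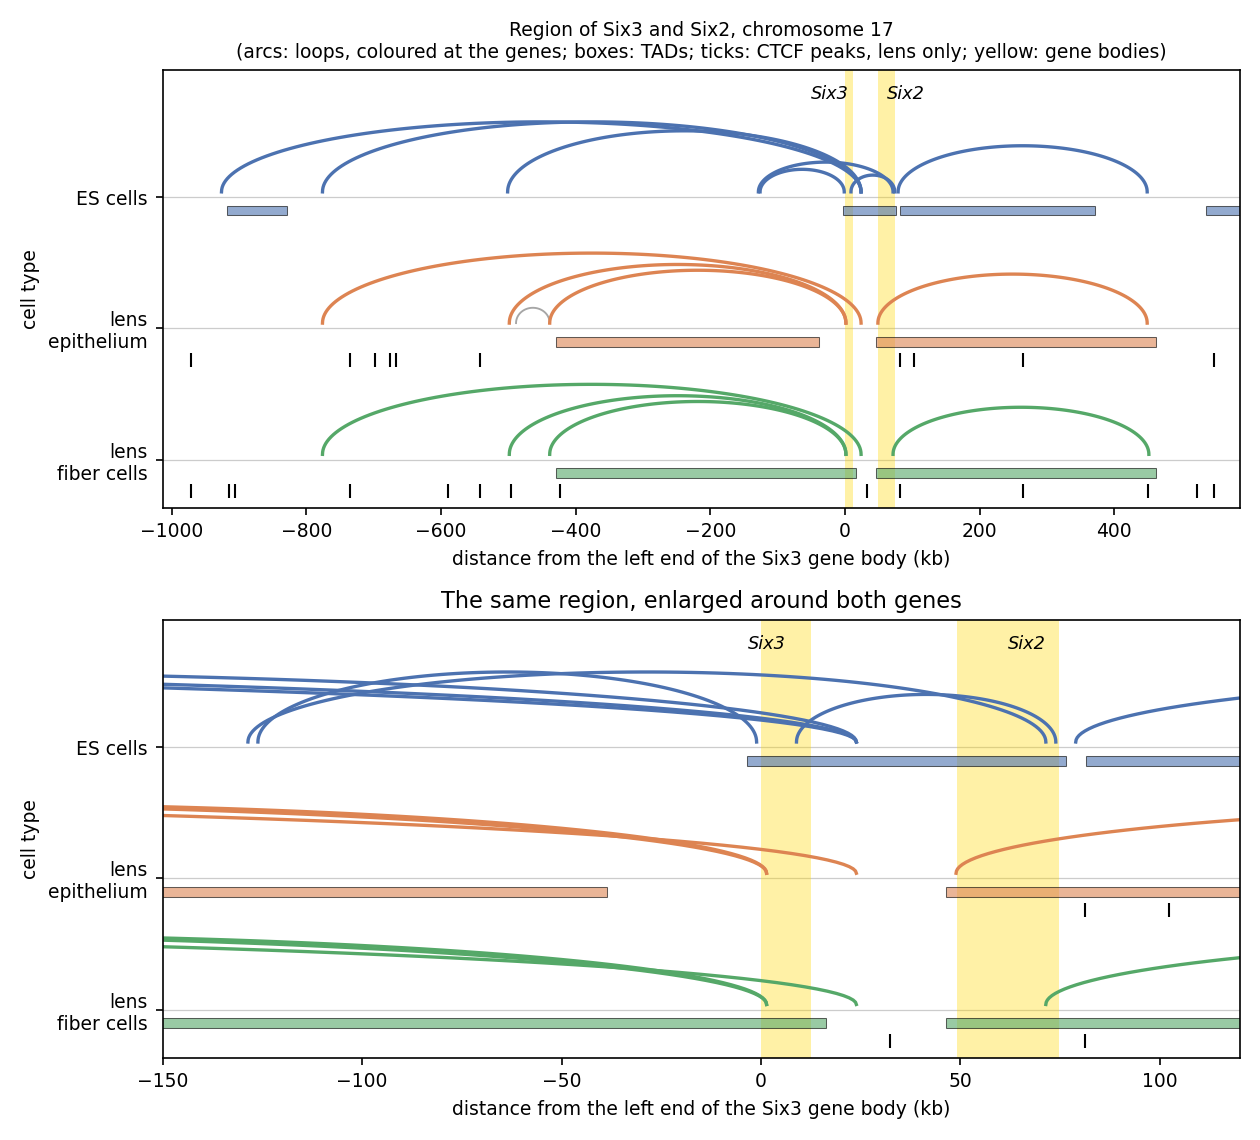
Loops (arcs, coloured where an anchor lies at Six3 or Six2), TADs (boxes) and lens CTCF peaks (ticks) by cell type, against the distance in kb from the left end of the Six3 gene body, over the region (top) and enlarged (bottom). The 65 kb arc between the yellow gene bodies and the 80 kb box over both are drawn for ES cells alone, and both lens rows show a border between the genes.

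Six6, a factor of the eye field and retina, and Six4, which acts with other Six-family genes in muscle and sensory organs, lie 155 kb apart on chromosome 12, Six6 from 72939882 to 72944899 and Six4 from 73099609 to 73114031. In ES cells each was joined to the same 5 kb anchor between them, 73040001 to 73045000. The Six6 loop spanned 95 kb from 72945001 to 72950000, with 25 contacts and a ratio of 5.04 (3.26 to 7.43). The Six4 loop spanned 70 kb from 73110001 to 73115000, an anchor that holds both Six4 promoters, with 56 contacts and a ratio of 2.88 (2.18 to 3.74). The lens lists held neither loop. Loops that pass over the genes without an anchor at them were in all 3 lists, 3, 2 and 2 over Six6 and 2, 1 and 1 over Six4. The share of all genes with such loops was not computed. The smallest over Six6 spanned 135 kb in ES cells (56 contacts), 120 kb in the epithelium (58) and 130 kb in fiber cells (27). Their anchors were 5, 10 and 5 kb wide and their ratios 4.53, 3.73 and 3.89. The smallest over Six4 spanned 490, 495 and 495 kb, with 57, 25 and 26 contacts. Their anchors were 10, 5 and 5 kb wide and their ratios 3.29, 6.87 and 3.87. Contacts counted at different anchor widths were not compared. An ES cell loop of 700 kb, from 72825001 to 72850000 to 73525001 to 73550000, passed over both genes with 74 contacts and a ratio of 2.54.

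The TADs around this pair differed in size. Six4 lay in a TAD of 70 kb in ES cells, from 73045001 to 73115000, and in TADs of 505 kb in the epithelium and 520 kb in fiber cells, from 73020001 to 73525000 and from 73010001 to 73530000. Six6 lay in TADs of 150, 90 and 105 kb. The Six6 TAD ended at 72985000 in ES cells, at 72950000 in the epithelium and at 72955000 in fiber cells. Borders lay between the genes in every cell type, and 0 CTCF peaks of either lens list did. The nearest peak to Six4 was 105 kb away in both lists, at 73218802 and 73218839.

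**Figure D3:**
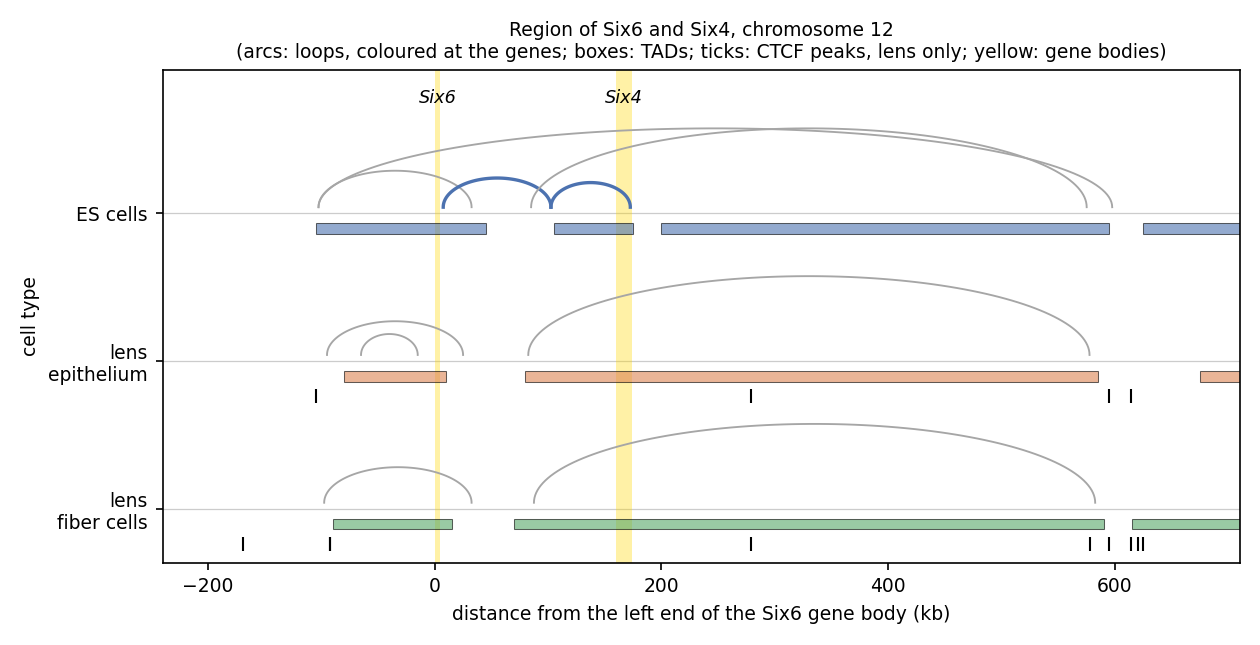
Loops, TADs and lens CTCF peaks by cell type around Six6 and Six4, against the distance in kb from the left end of the Six6 gene body. The coloured ES cell arcs of 95 and 70 kb meet at 1 anchor between the genes, and grey arcs pass over each gene in all 3 rows.

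Six5, a relative of Six4 on chromosome 7 (19094544 to 19098549), had 1 loop, in ES cells. It ran 100 kb from 19075001 to 19100000, which holds the gene and its promoter, to 19175001 to 19200000 at Eml2, a microtubule-associated protein gene, with 168 contacts and a ratio of 3.003 (2.57 to 3.49). The nearest anchors were 201 kb away in the epithelium and 94.5 kb away in fiber cells. Its TADs spanned 90 kb in ES cells and 305 kb in fiber cells, from 19025001 to 19115000 and from 19070001 to 19375000. The lens epithelium list held no TAD within 696 kb. Six5 was the only Six-family gene with a CTCF peak, in fiber cells at 19093314, 1.23 kb before the gene body, with a fold enrichment of 7.10. The nearest lens epithelium peak lay 5.53 kb away, just outside the widened gene body, at 19089018 with a fold enrichment of 5.21.

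Eya1, a gene of ear, kidney and eye development (chromosome 1, 14168953 to 14311035), had loops in the lens lists alone under the rule. A loop of 325 kb joined 14300001 to 14325000 to 14625001 to 14650000 in both, with 114 contacts in the epithelium and 137 in fiber cells and ratios of 2.37 (1.95 to 2.85) and 2.23 (1.87 to 2.63). Lens fiber cells had a further loop from the same anchor, 525 kb to 13775001 to 13800000 on the other side of the gene, with 93 contacts and a ratio of 2.201. The ES cell list held a loop of 550 kb from 13775001 to 13800000 to 14325001 to 14350000, with 129 contacts and a ratio of 2.13, whose right anchor lay 13.97 kb past the gene body and outside the rule. Of the 4 members with a TAD in all 3 lists, Six2, Six4, Six6 and Eya1, the TAD sizes differed least at Eya1. It lay in a TAD of 960 kb in ES cells and in the epithelium, both from 13770001 to 14730000, and in one of 955 kb in fiber cells.

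Eya2, expressed in lens and sensory placodes (chromosome 2, 165595028 to 165771727), was the only one of the 4 members over 100 kb with a loop in every list. An anchor before the gene, 165525001 to 165550000, was joined to 165700001 to 165725000 inside it over 175 kb, with 465 contacts in ES cells and 165 in the epithelium. The ratio to the expected contacts was 2.15 in both, with intervals of 1.96 to 2.35 and 1.84 to 2.51. The ES cell loop ranked 7 by contacts among the 2065 with 25 kb anchors. In fiber cells the inner anchor was the next bin, 165725001 to 165750000, with 211 contacts over 200 kb and a ratio of 2.31 (2.01 to 2.65). A further ES cell loop of 220 kb ran from 165530001 to 165540000 to 165750001 to 165760000, with 79 contacts and a ratio of 2.35. An ES cell TAD from 165515001 to 165755000 began before Eya2 and ended inside it, and neither lens list held a TAD there.

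Dach1 (chromosome 14, 97786846 to 98169765), expressed in retina, limb and other organs, had no loop and no TAD in any list. Lens fiber cells had 2 loops just outside the rule, from 98175001 to 98200000, which begins 5.24 kb past the gene body. One ran 600 kb to 97575001 to 97600000 with 109 contacts and a ratio of 2.24, and the other 1125 kb to 97050001 to 97075000 with 59 contacts and a ratio of 2.36. In ES cells and in the epithelium the nearest anchor was 877 kb away.

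Dach2 (chromosome X, 113297496 to 113836386) had 1 loop, shared by the lens lists, of 800 kb from 112975001 to 113000000 to 113775001 to 113800000. It had 45 contacts in the epithelium and 57 in fiber cells, with ratios of 3.05 (2.22 to 4.08) and 2.91 (2.21 to 3.78). In the epithelium the largest of its 4 FDR values was 0.0446, and in fiber cells 7.94e-05. The smallest loop that passed over the gene spanned 1075 kb in the epithelium and 1050 kb in fiber cells, and the ES cell list held none. The nearest ES cell anchor was 372 kb away. No TAD was listed within 7 Mb of Dach2 in any cell type.

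**Figure D4:**
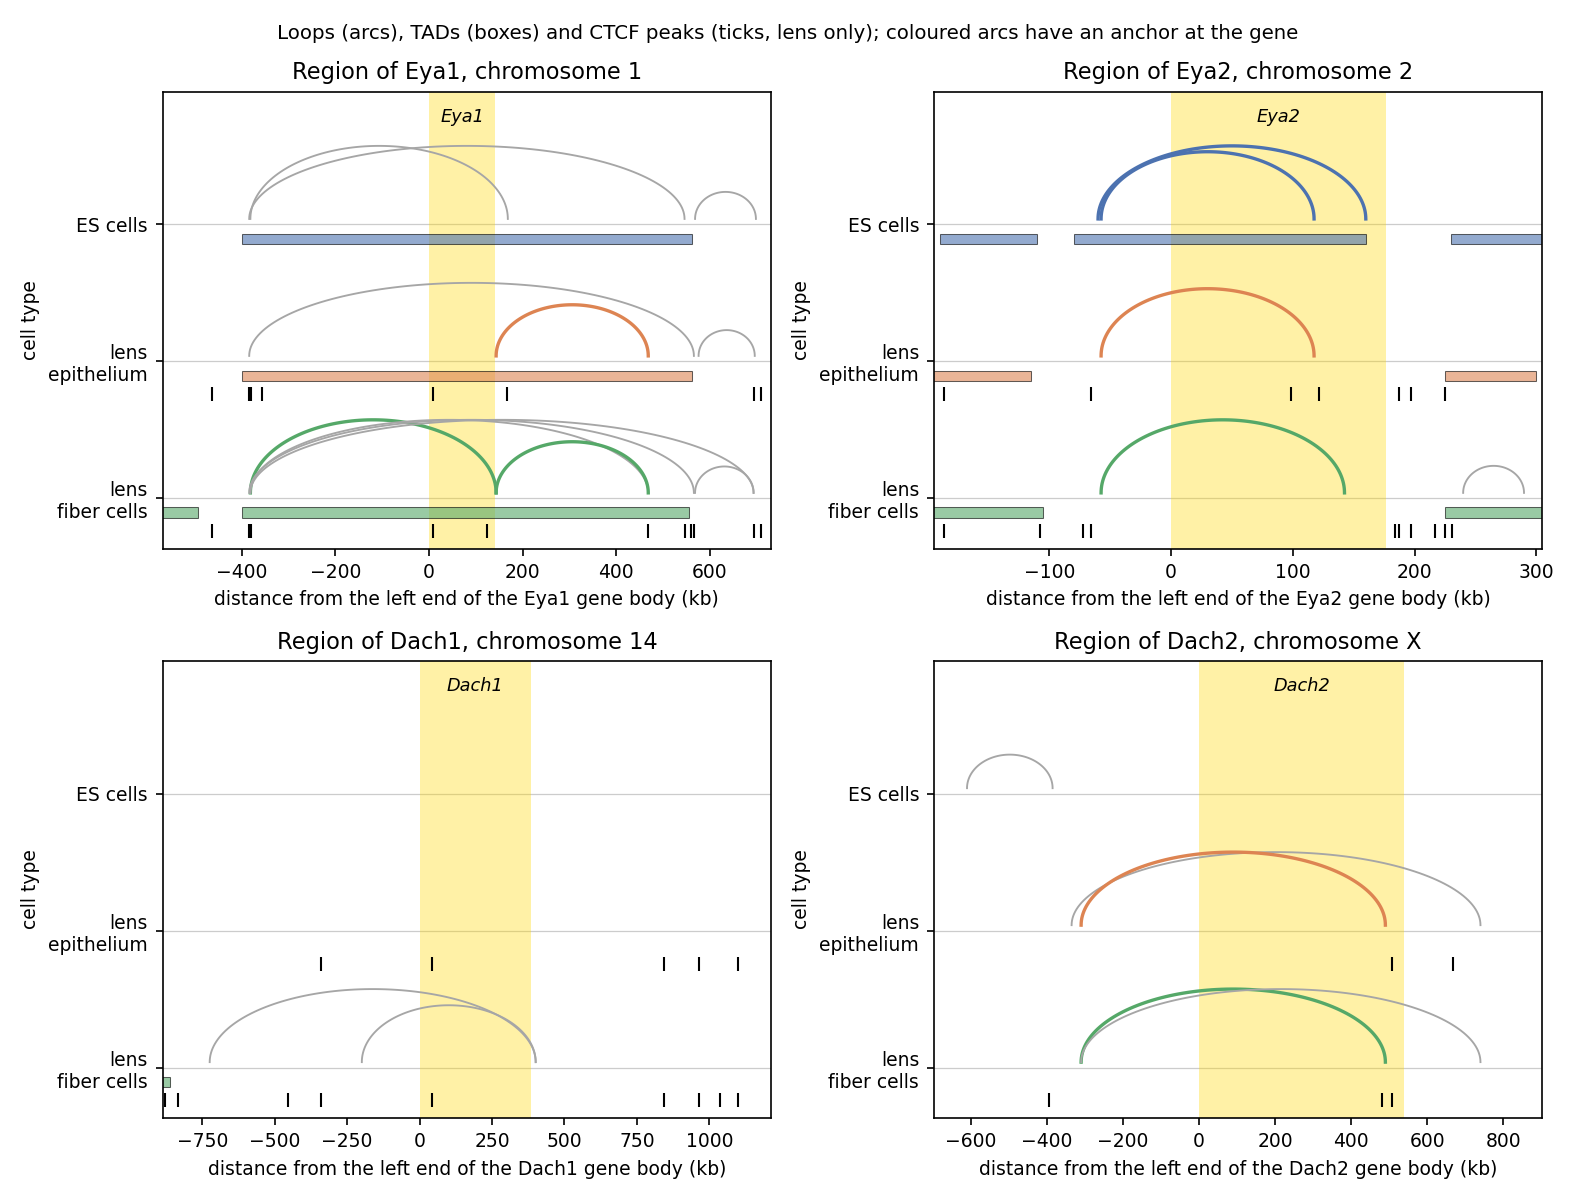
Loops, TADs and lens CTCF peaks by cell type around Eya1, Eya2, Dach1 and Dach2, each against the distance in kb from the left end of its gene body. Coloured arcs have an anchor at the gene. The Dach1 arcs of fiber cells are grey because their anchor begins 5.24 kb past the gene, and the Eya1 box of 955 to 960 kb recurs in all 3 rows.

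The loops at these genes had ratios near those of other loops. Their median ratio was 2.85 in ES cells, 3.05 in the epithelium and 2.62 in fiber cells, against 3.06, 3.05 and 2.83 over all loops. Their median size was 188, 440 and 470 kb, against 220, 250 and 270 kb. The shortest loop at a Six-family gene was 65 kb in ES cells, 400 kb in the epithelium and 380 kb in fiber cells. Over all members the shortest were 65, 175 and 200 kb, and the 175 kb loop, at Eya2, was also in the ES cell list.

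**Figure D5:**
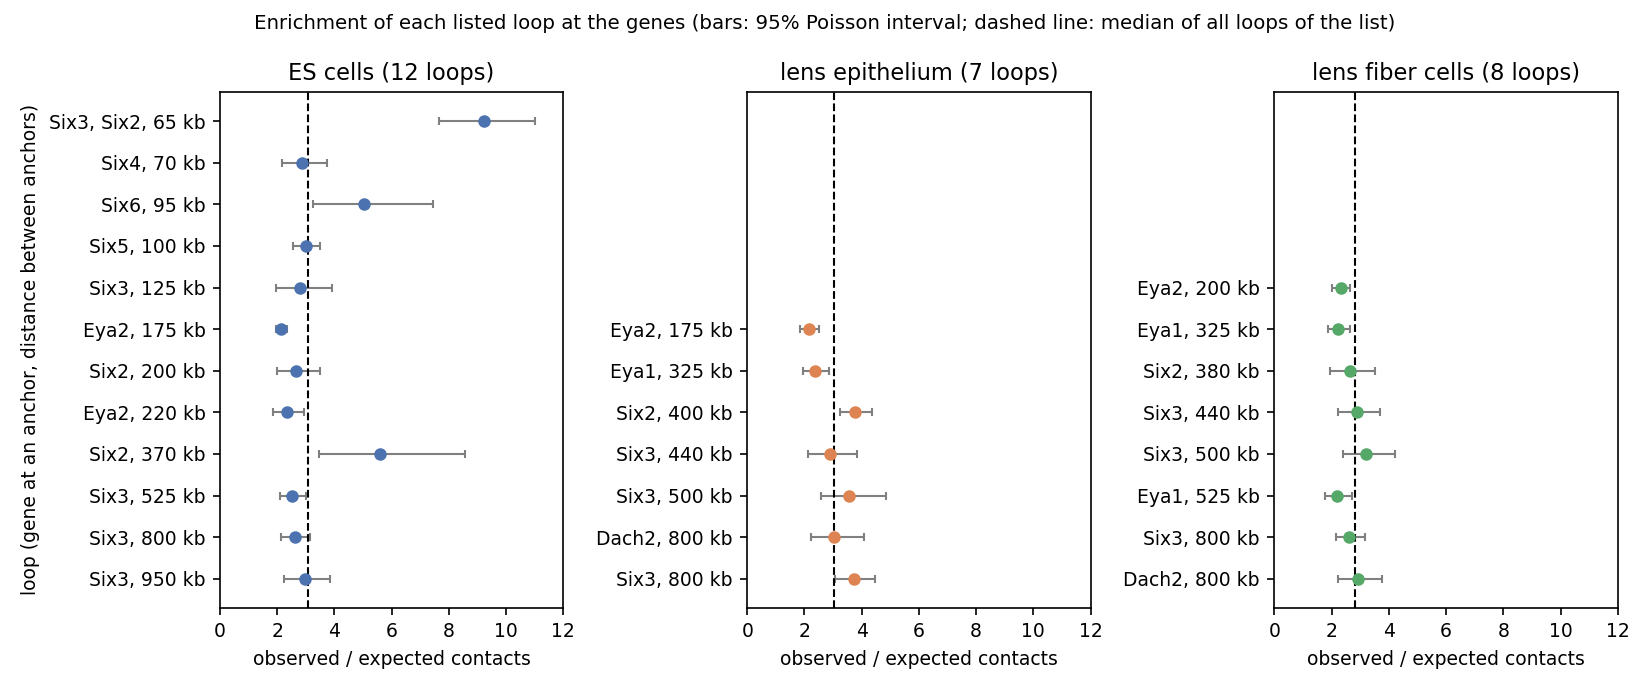
Ratio of observed to expected contacts (points, with 95% Poisson intervals) of each loop listed at the genes, labelled by gene and size in kb, with the median of all loops of that list as a dashed line. The 65 kb loop of Six3 and Six2 in ES cells stands at 9.24, and the lens loops lie between 2.15 and 3.77.

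Of the 7 lens epithelium loops, 5 were also in the lens fiber list and 2 in the ES cell list, where 55.5% and 37.9% of all lens epithelium loops were. Of the 8 lens fiber loops, 5 were in the lens epithelium list (57.8% of all) and 2 in the ES cell list (38.1% of all). Of the 12 ES cell loops, 2 were in each lens list, against 35.9% and 34.6% of all. With so few loops these counts describe the genes only.

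CTCF peaks lay mostly in the long genes. In the epithelium 4 of 9 members held a peak and in fiber cells 4 of 9, against 33.1% and 48.5% of all genes. All 4 Eya and Dach genes held one in the epithelium and 3 of 4 in fiber cells, against 68.4% and 81.5% of genes of at least 100 kb. Of the 5 Six-family genes, 0 held a peak in the epithelium and 1 in fiber cells, against 25.3% and 40.8% of genes under 50 kb. Some peaks lay just outside the widened gene body. The nearest to Six2 was 6.46 kb away in the epithelium and 6.44 kb in fiber cells, and the nearest to Six5 5.53 kb in the epithelium. The members held 5 peaks in the epithelium and 6 in fiber cells, which is 0.359 and 0.431 per 100 kb. All genes held 0.818 and 1.33 per 100 kb, and genes of at least 100 kb 0.593 and 0.857. The 4 long members held 0.390 per 100 kb in each list, a density below that of long genes in both.

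The share of all peaks that were in both lists was not computed, so the overlap at these genes has no reference. Of these sites, 3 were in both lists. Their fold enrichments were 4.99 in the epithelium and 5.82 in fiber cells in Eya1 (summits at 14177372 and 14177360), 5.82 and 6.14 in Dach1 (97830075 and 97830033), and 7.83 and 7.31 in Dach2 (113803947 and 113803979). Eya2 held 2 peaks in the epithelium, at 165693585 (fold 6.05) and 165716875 (fold 7.48), and 0 in fiber cells, although the fiber list is the longer. Lens fiber cells added peaks at 14293075 in Eya1 (fold 4.35) and at 113777380 in Dach2 (fold 4.57), and only 6.67% and 10.4% of the peaks of that list had a lower fold. Peaks that 1 list holds alone may lie under the limit of the other, and fold enrichments of different libraries were not compared.

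Some loop anchors held CTCF peaks. The inner anchor of the 175 kb Eya2 loop in the epithelium, 165700001 to 165725000, held the epithelium peak at 165716875, and its outer anchor the peak at 165529326. This loop was the only one of the 7 lens epithelium loops with a peak of that list at an anchor, whereas 39.5% of all lens epithelium loops had none. By the longer lens fiber list, 6 of the same 7 loops had a peak at 1 anchor, 1 had none and 0 had peaks at both. Among all lens epithelium loops these shares were 43.5%, 18.5% and 38.0%. Of the 8 lens fiber loops, 7 had a lens fiber peak at 1 anchor, 1 had none and 0 had peaks at both, against 44.3%, 16.6% and 39.1% of all. The Dach2 anchor held the lens fiber peak at 113777380, and the Six3 anchor 85625001 to 85650000 the one at 85645942. No CTCF data of ES cells were used.

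Of 21 other genes of the network, 16 had a loop anchor in ES cells, 16 in the epithelium and 14 in fiber cells. They comprised 13 eye field and lens factors, 2 genes of the Ski family, and 6 targets and corepressors. TADs touched 17, 12 and 10 of them, and CTCF peaks lay in 6 in the epithelium and 11 in fiber cells. The shares of all genes, of any length, were the 39.3%, 38.2% and 36.4% given above for loops, 42.2%, 22.3% and 30.9% for TADs and 33.1% and 48.5% for peaks, and no share matched for length was computed for this list. Of the 13 eye field and lens factors, 11, 11 and 9 had a loop. Pax6, the paired-box regulator of eye development, had 4, 5 and 4 loops. Lhx2, a LIM homeodomain factor of the optic vesicle, had 10, 3 and 2, and Otx2, a homeodomain factor of forebrain and retina, had 2, 0 and 0. The Ski relatives Ski and Skil of the Dach genes each had 1 loop in ES cells, and Skil 2 in fiber cells.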

How the data were processed

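Hi-C covered 3 cell types and CTCF ChIP-seq the 2 of the lens. Hi-C reads were aligned by the authors to mm10 with BWA and the replicates of a cell type merged with Juicer. The authors then called loops with HiCCUPS (juicer_tools 2.13.06 per the file headers) and TADs with Arrowhead. The deposited observed count of a loop is the raw number of contacts in the merged map. The expected contacts, a background signal, were made by the authors' run of HiCCUPS from 4 surroundings of each loop, each with an FDR, a q-value. The authors called CTCF peaks with MACS2, and every deposited peak carries its score, fold enrichment and p-value and q-value as −log10.

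Overlaps were computed from these lists with pandas 2.3.3, numpy 2.4.6 and scipy 1.17.1 under Python 3.11.15, with matplotlib 3.10.9 for the plots. The ratio of a loop is its observed count over the expected contacts of the donut surroundings. Loop size is the distance between anchor midpoints, and a loop was shared when both midpoints lay within 10 kb. Peaks were shared when they overlapped by 1 bp. Intervals are 95% exact Poisson intervals. The rules were tested on simulated data, with 4 of 4 checks right. All members were named, with the genes whose body overlaps a far anchor (the most central where more than 3 overlap), and a few other network genes as examples after their values were seen. The members and lists were chosen with earlier results of these data known. ChIP-seq depth, motifs in peaks and some withheld items, a gene near an anchor among them, are not reported here.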

Additional observations from a re-analysis of the deposited data

How the results depend on the processing

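Each count was recomputed under other settings, 71 values for 18 results, and 56 stayed within 1.5 times the reported count. With anchors of 5 or 10 kb only, loops at the members numbered 7 in ES cells, 2 in the epithelium and 3 in fiber cells, and members with a loop 1 in the epithelium and 2 in fiber cells, 0 of them Eya or Dach genes. With all 4 FDR values below 0.01, members with a loop in the epithelium numbered 3. Lens fiber loops also in ES cells numbered 5 with midpoints within 25 kb and 1 when both anchors had to overlap. With TADs of at least 200 kb, 2 TADs touched 2 members in ES cells. With gene bodies widened by 25 kb, CTCF peaks numbered 10 in the epithelium and 14 in fiber cells, 7 of them shared. In the stronger 50% of each list they numbered 2 in fiber cells, with 1 shared. The cause of these differences was not tested. No paired analysis was possible because the lists pool the replicates and hold no replicate columns, and for the same reason no replicate could be left out. Depth limits what each list holds, so a missing loop, TAD or peak may lie below its threshold.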
